A study of Mus musculus with 16 samples.

Results

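Among the autosomal 1 kb windows of the mouse genome that reduced representation bisulfite sequencing (RRBS) covered, 2207 gained DNA methylation when control-shRNA mESCs were differentiated into embryoid bodies (EBs). They were chosen by a rule on the 4 control-shRNA libraries. A window needed at least 3 CpGs in each of them, a level of at most 20% in both libraries 'mESC shCtrl' and a level of at least 30% in both libraries 'EB shCtrl', where the level is the mean over the CpGs of the percentage of methylated reads. Of 76017 windows with enough CpGs, 24122 were at most 20% in both control mESC libraries, and the 2207 chosen windows were 2.9% of the former and 9.15% of the latter. The remaining 21915 low windows serve below as the comparison. Since the control libraries chose the windows, their values in these libraries are a description and were not tested, and the other 12 libraries carry the tests.

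RRBS sequences bisulfite-treated DNA, in which unmethylated cytosines are read as thymine, and a CpG's methylation is read as the percentage of its reads that still show C. All 16 libraries came from E14 mESCs grown in serum with LIF, or from EBs made of them in the same medium without LIF, in 8 groups of 2 replicates. 'E14 mESCs Young' were YP-mESCs at about 14 passages and 'E14 mESCs Old' were OP-mESCs after around 70 passages. 'O-S33Y #1' and 'O-S33Y #2' were each 1 clone that overexpressed S33Y-mutant β-catenin, a form that escapes degradation, and that had also been kept for many passages. The transduced groups were YP-mESCs carrying a control shRNA (shCtrl) or 1 of the shRNAs against β-catenin (shβcat #1), as mESCs and as EBs at day 8 of differentiation. The authors report that β-catenin-silenced EBs began to fall apart early and that these cells did not differentiate properly. Nothing in the labels says that the replicates were separate cultures, so p-values speak only of these samples. They set a difference against the spread between replicates, which was estimated in part across windows. Methylation calls hold no expression, so the labelled cell types were not checked against marker transcripts.

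DNA methylation in the mammalian genome is found mostly at CpGs, and is set by the de novo methyltransferases DNMT3A and DNMT3B and copied at replication by DNMT1. Most CpG-poor DNA is methylated in mESCs, whereas CpG islands, which often hold the start sites of genes, stay free of it. When pluripotent cells leave their state, promoters of genes used in pluripotency or in the germline and many distal regulatory regions become methylated. An EB is a mixture of cells, and a level between 0 and full methylation can come from a share of cells, of alleles or of molecules, which these data cannot tell apart.

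The libraries held 18919219 to 40519010 reads on CpGs. YP-mESC replicate 2 had 0 CpGs on chromosome 13, so chosen windows there are in no comparison with YP-mESCs, and OP-mESC replicate 2 covered the fewest CpGs. Of the 2207 windows, 1063 had a level in all 16 libraries, and the number with a level ranged from 1118 in OP-mESC replicate 2 to 2207 in the control libraries. The median window rested on 5 CpGs and 144 to 229 reads in its shallowest and deepest library of the shβcat comparison. Reads that span several CpGs count at each. The low windows that were not chosen had median levels of 2.12% to 2.64% in the 4 transduced mESC libraries and of 0.411% to 0.63% in the 8 untransduced ones. Tests were therefore made only within the shRNA-transduced libraries and within the others. What set the library sets apart, and the part of this offset in any result, was not tested.

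Stretches of 200 bases from a few of the windows show what was measured, all on the plus strand of mm9 and without UTR. Capitals mark the CpGs with a value in every library in which the window had a level. The first set comes from windows within 1 kb of start sites of pluripotency genes, the gene group with the largest number of chosen windows among those examined below. A start site is the start of any annotated transcript of a gene, so it need not be the gene's main promoter.

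Prdm14 (chr1:13118394-13118593): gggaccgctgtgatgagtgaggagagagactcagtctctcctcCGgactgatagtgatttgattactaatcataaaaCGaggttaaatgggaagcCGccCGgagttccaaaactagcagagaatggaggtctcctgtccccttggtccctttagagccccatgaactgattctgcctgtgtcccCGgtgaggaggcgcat
Tbx3 (chr5:120125593-120125792): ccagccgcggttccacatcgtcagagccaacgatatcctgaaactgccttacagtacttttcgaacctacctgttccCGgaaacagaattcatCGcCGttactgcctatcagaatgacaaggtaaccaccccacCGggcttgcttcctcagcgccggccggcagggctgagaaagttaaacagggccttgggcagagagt
Dppa2 (chr16:48310140-48310339): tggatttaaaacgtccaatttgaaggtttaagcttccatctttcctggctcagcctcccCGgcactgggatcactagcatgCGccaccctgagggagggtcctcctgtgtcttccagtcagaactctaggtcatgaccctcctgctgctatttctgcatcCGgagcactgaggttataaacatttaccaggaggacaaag
Tcl1 (chr12:106461190-106461389): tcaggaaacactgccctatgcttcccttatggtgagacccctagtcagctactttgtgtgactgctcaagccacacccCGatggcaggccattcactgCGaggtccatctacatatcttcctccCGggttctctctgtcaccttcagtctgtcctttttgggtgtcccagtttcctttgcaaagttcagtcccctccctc

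The second set holds 3 of the windows with the largest rise in the control libraries (Sgk1, Ephb2 and Erf) and the window that was higher in both S33Y clones than in YP-mESCs by the most (Ildr1).

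Sgk1 (chr10:21698278-21698477): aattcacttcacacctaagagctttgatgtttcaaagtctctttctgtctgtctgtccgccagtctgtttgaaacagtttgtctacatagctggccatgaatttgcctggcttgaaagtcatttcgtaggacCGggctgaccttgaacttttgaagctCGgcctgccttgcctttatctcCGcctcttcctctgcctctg
Ephb2 (chr4:136319689-136319888): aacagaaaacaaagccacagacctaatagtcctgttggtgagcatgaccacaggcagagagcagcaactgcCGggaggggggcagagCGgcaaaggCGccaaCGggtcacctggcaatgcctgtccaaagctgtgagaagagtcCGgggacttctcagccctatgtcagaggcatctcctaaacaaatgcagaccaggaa
Erf (chr7:26030130-26030329): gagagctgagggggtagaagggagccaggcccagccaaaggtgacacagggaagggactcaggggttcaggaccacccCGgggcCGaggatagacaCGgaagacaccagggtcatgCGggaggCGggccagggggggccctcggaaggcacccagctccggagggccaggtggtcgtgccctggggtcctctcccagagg
Ildr1 (chr16:36709359-36709558): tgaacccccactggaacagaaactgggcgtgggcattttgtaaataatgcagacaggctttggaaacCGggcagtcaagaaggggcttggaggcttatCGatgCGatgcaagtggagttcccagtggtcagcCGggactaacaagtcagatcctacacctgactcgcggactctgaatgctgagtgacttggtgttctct

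The stretches range from 3 CpGs with a value at Sgk1, Dppa2 and Tcl1 to 5 at Prdm14, Ephb2 and Erf. At Sgk1, the 3 CpGs were at 0% to 1.96% in shCtrl-transduced mESCs and at 68.6% to 72.8% in shCtrl-transduced EBs (means of the replicates). At Tbx3, the 4 CpGs of the stretch were at 1.47% to 7.86% in control mESCs and differed more from each other in control EBs, at 25.7% to 62.4%, than in control mESCs. At Ildr1, the 4 CpGs were at 4.17% to 16.3% in control mESCs and at 71.6% to 86.3% in control EBs.

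By the rule, both control mESC libraries were low and both control EB libraries were high at every chosen window. The medians were 10.7% and 10.8% in shCtrl-transduced mESCs, and 51.2% and 51.7% in shCtrl-transduced EBs. The rise from the mean of the former to the mean of the latter had a median of 42.0 percentage points, with quartiles of 30.9 and 53.3, and ran from 13.6 to 76.3 points. Over all 76017 windows its median was 1.78 points. A rise of more than 50 points was reached by 721 chosen windows (32.7%). Between the 2 replicates of a group, which the rule both limited, the median SD per window was 1.58 points in control mESCs and 3.38 points in control EBs. Over all windows it was 1.56 and 1.85 points.

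**Figure D1:**
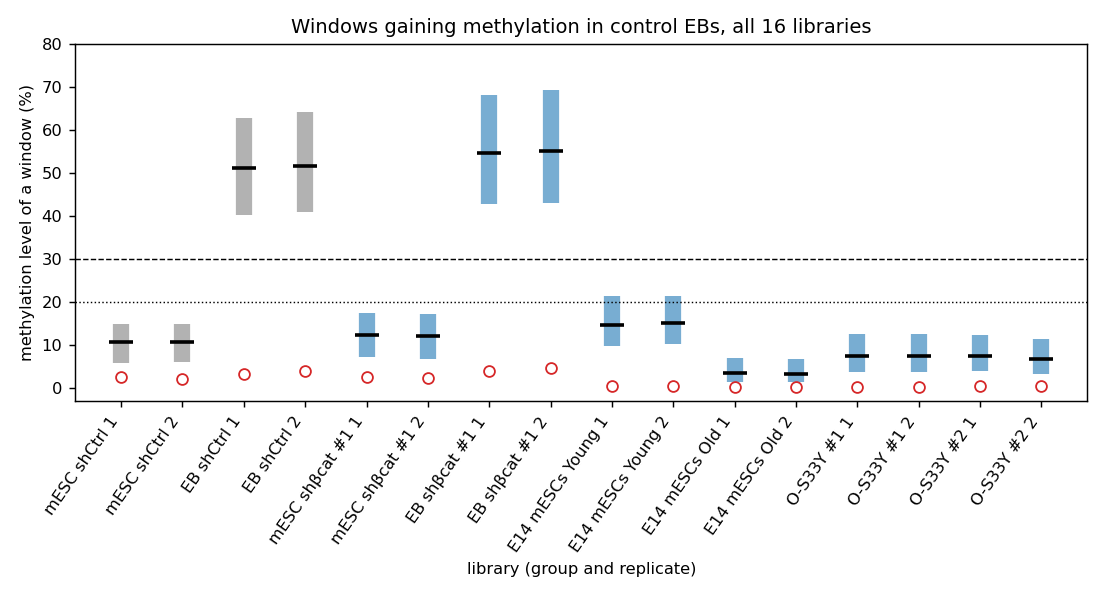
Methylation levels (%) of the 2207 windows in each of the 16 libraries, grey for the 4 control-shRNA libraries that chose them and blue for the others. Bars span the quartiles and black lines mark the medians over windows with a level, red circles are the medians of the low windows that were not chosen, and dotted and dashed lines mark the limits of 20% and 30%. The medians in EBs lie between 51.2% and 55.2%, and those in mESCs between 3.33% and 15.1%.

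The levels were close in a replicate that the rule had not used. With replicate 1 alone the rule chose 3241 windows, whose median in control EBs was 49.3% in replicate 1 and 49.5% in replicate 2, which had not been used. With replicate 2 alone it chose 3191 windows, at 49.6% in replicate 2 and 48.6% in replicate 1.

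Windows close to the limits show what the rule separated. Inside the limit of 20%, the window at the start sites of Amigo3 and Rnf123 (chr9:107955000-107955999) had 12.2% and 19.99% in control mESCs and 54.1% and 60.04% in control EBs. The window in Gm17325 (chr2:79299000-79299999), just outside it, averaged 18.9% and 45.8%. Inside the limit of 30%, the window at the start of Tnk1 (chr11:69669000-69669999), a tyrosine kinase gene, had 30% and 32.2% in control EBs, and the window in Gadd45a (chr6:66985000-66985999), a stress-response gene, fell just outside with 29.97% and 37.7%.

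The chosen windows were poorer in CpGs than other low windows and lay farther from start sites. They held a median of 22 CpGs in the mm9 sequence (quartiles 16 and 31), against 53 in the low windows that were not chosen and 21 in all windows. Their median ratio of observed to expected CpGs was 0.344, against 0.665 and 0.348. The median distance from a window's middle to the nearest start site was 5289 bases, against 400 bases in the low windows that were not chosen and 6489 in all windows. A start site lay in 324 of the chosen windows (14.7%) and within 1 kb of another 320 (14.5%), while 416 (18.8%) lay in a gene body with an exon, 517 (23.4%) in introns only and 630 (28.5%) between genes. Over all windows these shares were 21.5%, 12.7%, 17.6%, 19.2% and 29.1%. In the low windows that were not chosen they were 58.3%, 25.4%, 3.75%, 3.62% and 8.90%.

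The share of low windows that were chosen fell with CpG content. It was 61.7% of low windows with 0 to 9 CpGs, 44% of those with 10 to 19, 16% with 20 to 39, 3.37% with 40 to 59, 1.06% with 60 to 79 and 0.272% with 80 or more. By position, 2.47% of low windows with a start site were chosen, against 39.4% of those in introns and 33.6% of those with an exon of a gene body. CpG-poor windows also rose further. The median rise in the control libraries was 46.9 points in the windows with 10 to 19 CpGs and 29.0 points in those with 40 to 59.

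The chosen windows were mostly single. They formed 2110 separate stretches, of which 91 had 2 adjoining windows and 3 had 3. An adjoining window with a level in the 4 control libraries existed for 868 of them. Of the 772 adjoining windows that were not chosen themselves, 385 (49.9%) were low in control EBs too and 172 (22.3%) were above 50% in both control mESCs and control EBs. Of all 2207 chosen windows, 383 (17.4%) adjoined a window that stayed low.

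**Figure D2:**
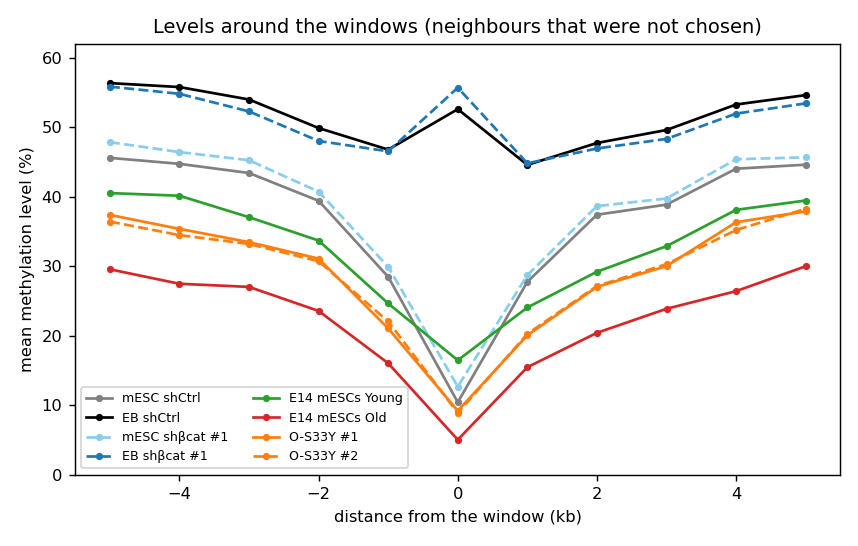
Mean methylation level (%) of the chosen windows, at 0, and of the windows 1 to 5 kb to each side that were not chosen themselves, by distance in kb. Each line is a group (mean of 2 replicates), and the rule limited the levels at 0 in the control-shRNA libraries. Control mESCs dip from 45.6% at 5 kb before to 10.4% at the windows, whereas the EB groups are at 52.6% (shCtrl) and 55.7% (shβcat #1) there, above their means at 1 kb to each side and close to those at 5 kb.

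The levels around the windows rose in EBs as well. That the rise there was smaller follows in part from the rule, which used these control libraries to choose the windows. At 1 kb before a chosen window, the windows that were not chosen averaged 28.5% in control mESCs and 46.8% in control EBs. At 5 kb before they averaged 45.6% and 56.4%. At 1 kb before, these means rest on 357 windows in the smaller library of the shβcat-transduced EBs, and on 399 to 428 in the smaller libraries of the other transduced groups.

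Single CpGs of the chosen windows were read in the shβcat libraries, which the rule did not use. At most 20% was reached by 77.6% and 78.1% of the CpGs in shβcat-transduced mESCs, and at least 30% by 81.2% and 82.3% in shβcat-transduced EBs. Few were close to full methylation, with 12.4% and 12.8% at 80% or more in shβcat-transduced EBs. The median SD among the CpGs of a window was 9.11 and 8.9 points in shβcat-transduced mESCs, and 14.2 and 13.7 points in shβcat-transduced EBs.

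The windows rose in shβcat-transduced EBs too. Their medians were 12.4% and 12.1% in the libraries 'mESC shβcat #1', and 54.6% and 55.2% in 'EB shβcat #1'. Of 1996 windows that could be tested, 1988 rose between these groups by a quasi-binomial F test with Benjamini-Hochberg adjustment over all 73528 windows tested, where 26.4% of all windows were called higher. None of the chosen windows was called lower by this test (0 also at an unadjusted p under 0.05, and 0 by edgeR), where 19.7% of all windows were. The rise was called and exceeded 25 points in 1703 chosen windows, against 8.37% of all windows. In 1993 chosen windows both EB libraries lay above both mESC libraries, against 37.8% of all windows. Of the 21277 tested low windows that were not chosen, 7804 were called higher, but only 398 were called with a rise over 25 points. Both EB libraries lay above both mESC libraries in 12561 of these 21277 windows. Small rises were thus more common among low windows than among all windows. The median rise was 42.6 points in the chosen windows and 1.04 points in the low windows that were not chosen.

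At the chosen windows the median rise was close between the shRNAs. Over the 2003 windows with a level in all 8 transduced libraries, the median rise was 41.8 points with shCtrl and 42.3 points with shβcat #1. Across these windows the rises had a Pearson's r of 0.845, a description across windows of one genome that share their CpG content and depth. When the windows were put in 4 groups by their rise with shCtrl, the median rises with shβcat #1 were 25.5, 37.4, 49.4 and 61.5 points. The level in shβcat-transduced EBs exceeded that in control EBs by a median of 3.30 points, with quartiles of -1.50 and 8.18. It was higher by more than 10 points in 361 windows and lower by more than 10 points in 117. This difference was not tested, because the control EBs chose the windows. Over all windows with a level the order was the other way. The medians there were 83.3% in control EBs and 78.8% in shβcat-transduced EBs (means of the 2 replicates' medians). In mESCs, the level with shβcat #1 exceeded that with shCtrl by a median of 1.67 points at the chosen windows. Over all windows with a level the mESC medians were 73.4% with shCtrl and 78.0% with shβcat #1. The median rise over all windows was 1.78 points with shCtrl and, over the 73528 tested, 0.0554 points with shβcat #1.

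**Figure D3:**
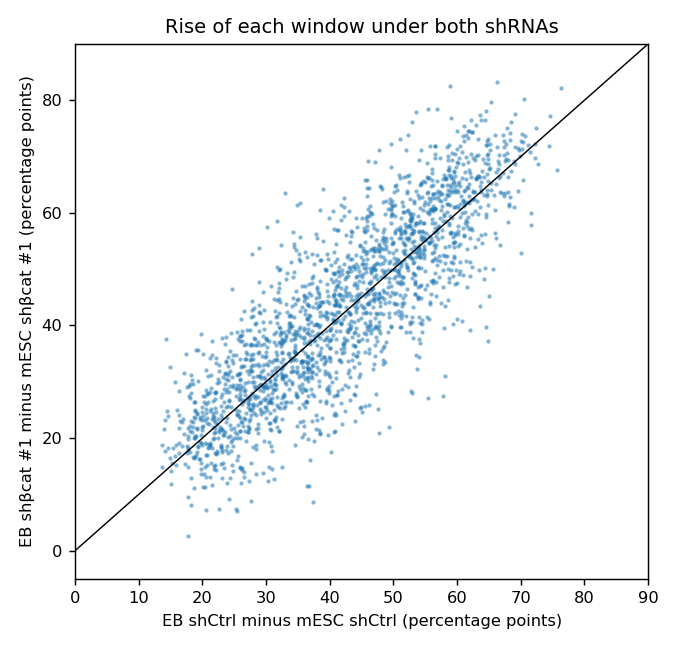
Rise in methylation (percentage points, means of 2 replicates) of each chosen window from mESCs to EBs with shCtrl, which chose the windows, on the x axis and with shβcat #1 on the y axis, with 1 point per window (2003 windows) and the line of equal rises. Every point lies above 0 on the y axis, and the points scatter around the line.

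Applied to the shβcat libraries, the same rule chose 2255 of 73898 windows. Among the 69367 windows with enough CpGs in both sets of libraries it chose 2003 with shCtrl and 2176 with shβcat #1, and 1449 with both, which is 72.3% of the former and 66.6% of the latter. At the chosen windows, 1889 of 2008 with a level in both libraries 'EB shβcat #1' were at least 30% in both of them, and 1 was at most 20% in both.

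That 1 window lay between genes (chr7:3207000-3207999), with 34.3% and 40.1% in control EBs and 10.3% and 15.5% in shβcat-transduced EBs. It was still higher than in shβcat-transduced mESCs, at 0.321% and 2.5% (adjusted p = 0.00056). The next lowest in shβcat-transduced EBs lay at the start of Dis3l (chr9:64187000-64187999), an exoribonuclease gene, with 39.1% and 45.3% in control EBs and 17.9% and 20.3% with shβcat #1. Windows in introns of Bnc2 (chr4:84173000-84173999), a zinc finger gene, and Rell1 (chr5:64324000-64324999) and in Gkn3 (chr6:87334000-87334999) followed, with means of 21.6%, 21.6% and 21.8% in shβcat-transduced EBs against 39.9%, 36.5% and 31.3% in control EBs.

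The 5 windows with the highest levels in shβcat-transduced EBs all lay in gene bodies, and 4 of them are described here. The intron of Mkrn1 (chr6:39359000-39359999), a ubiquitin ligase gene, had 83.1% and 97%, an exon-bearing window of Arih2 (chr9:108506000-108506999) had 93.6% and 87.2%, and an intron of Arid1a (chr4:133263000-133263999), a subunit of the BAF chromatin remodelling complex, had 86.7% and 92.2%. A window in Nr4a1 (chr15:101100000-101100999), which encodes an orphan nuclear receptor, had 88.1% and 90.8%. In control EBs the Arid1a window had 66.7% and 69.7%, below both shβcat libraries, whereas the values of Mkrn1 in the EB groups overlapped.

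The 5 largest called rises with shβcat #1 were in an exon-bearing window of Zmiz1 (chr14:26480000-26480999), a transcriptional coregulator gene, in an intron of Trim71 (chr9:114442000-114442999), an RNA-binding ubiquitin ligase of early development, at the start of Timeless (chr10:127685000-127685999) and in introns of Ddah1 (chr3:145444000-145444999) and Tmem184b (chr15:79227000-79227999). They were 79.7 to 83.2 points. At Zmiz1, the levels were 3.13% and 3.8% in shβcat-transduced mESCs and 80.6% and 92.7% in shβcat-transduced EBs (adjusted p = 3.3e-08). At Trim71, they were 5.21% and 1.98% against 83.3% and 89%, while control EBs had 66.5% and 61.1%.

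The 12 largest rises in the control libraries, among windows with a level in all 16, lay between 68.2 and 74.5 points. The largest was at the start of Acin1 (chr14:55262000-55262999), which encodes a nuclear protein of apoptotic chromatin condensation and splicing. It had 12.3% and 12.6% in control mESCs, 87.3% and 86.6% in control EBs, and 86.7% and 89.7% in shβcat-transduced EBs. At the start of Sgk1 (chr10:21698000-21698999), a serine/threonine kinase gene, control mESCs had 0.424% and 0.556%, and control EBs had 65.4% and 73.8%. Both replicates agreed that this window was nearly free of methylation in control mESCs and mostly methylated in EBs, with 79.4% and 93.4% in shβcat-transduced EBs.

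Others of the 12 lay in gene bodies, in an intron of the receptor tyrosine kinase gene Ephb2 (chr4:136319000-136319999, 13.2% ± 0.56 to 85.4% ± 0.91, SD, n = 2), in an intron of Ddah1, in an intron of Mkrn1, and in exon-bearing windows of the matrix metalloproteinase gene Mmp28 (chr11:83261000-83261999), of Ildr1 (chr16:36709000-36709999) and of Erf (chr7:26030000-26030999). Erf encodes an ETS-domain repressor, and its window was the middle one of 3 adjoining chosen windows. These rose from 6.88%, 12.9% and 15.2% in control mESCs to 68.6%, 82.9% and 77.1% in control EBs, and stood at 75.1%, 85.5% and 79.7% in shβcat-transduced EBs.

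Other runs of 3 windows lay at the start and in the body of the zinc finger gene Zfp865 (chr7:4981000-4983999) and at the start of Slc15a1 (chr14:121904000-121906999), a peptide transporter gene, and running on outside it. The Zfp865 windows are rich in CpGs, with 51, 86 and 70 in the reference, and reached 61.6%, 53.7% and 50.3% in control EBs. With shβcat #1 they reached 57.9%, 41.4% and 44.5%. The Slc15a1 windows reached 54.9%, 40.1% and 60.3% with shCtrl and 64.4%, 53.4% and 75.1% with shβcat #1.

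Of the 17 chosen windows at start sites of listed genes, 7 came from the pluripotency list and 5 from the lineage factors. Of 48 low windows within 1 kb of a start site of the pluripotency genes, 7 were chosen (14.6%), at Dppa2, Dppa4, Lefty2, Prdm14, Tbx3 and Tcl1, against 3.39% of all 18994 low windows so placed. Of the lineage factors, 5 of 79 low windows were chosen (6.33%), at Hand1, Pax6, Runx1 and Tal1. Of the Hox genes, 2 of 72 (2.78%) were chosen, at Hoxb1 and Hoxb3. Of the Wnt pathway genes, 2 of 120 (1.67%) were chosen, at Dkk3 and Tcf7l2. Of 11 low windows at genes of the methylation machinery (Dnmt, Tet and related genes) 0 were chosen. For the germline list only 4 windows were low in control mESCs to begin with, and 1 of them was chosen, at Smc1b. Of 30 windows in imprinting control regions 0 were low in control mESCs, so none could be chosen. The 7 pluripotency windows held 15 to 57 reference CpGs. These shares were not matched for CpG content, with which the share of chosen windows fell, and no test was made of them.

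**Figure D4:**
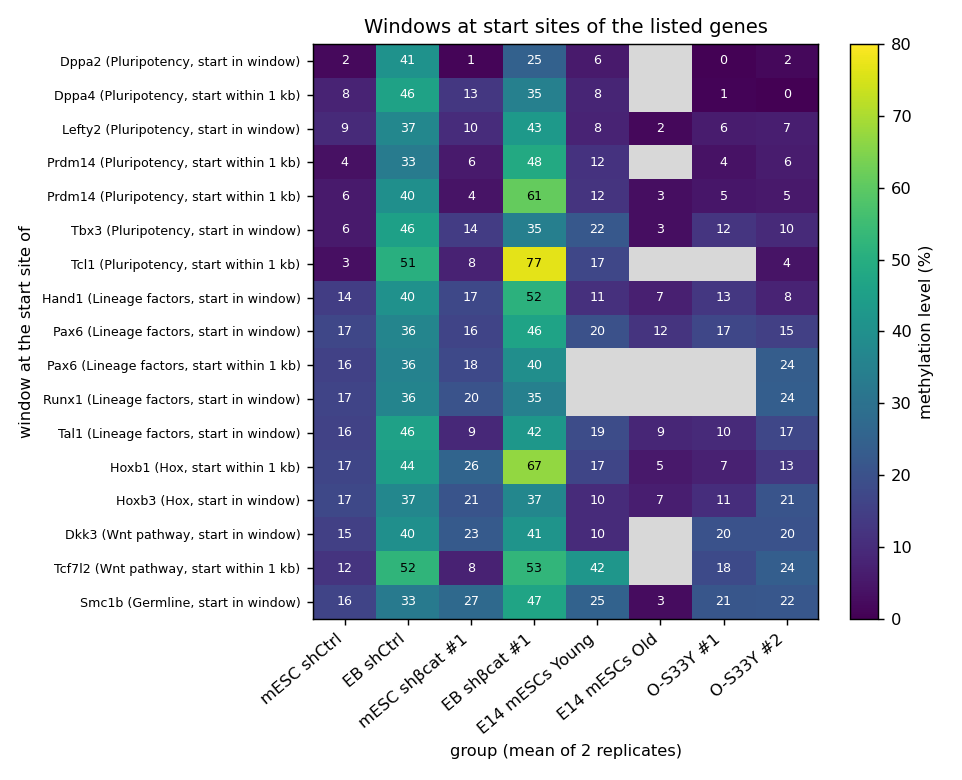
Methylation level (%, mean of 2 replicates, printed and coloured) of the 17 chosen windows at start sites of listed genes in the 8 groups, with grey where a library had no level. Both EB columns stand above both mESC columns of the transduced cells in every row, and the Old column is below the Young one wherever both have a value.

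All 17 windows at listed start sites rose in shβcat-transduced EBs against shβcat-transduced mESCs by the quasi-binomial test (7 of 7 pluripotency, 5 of 5 lineage, 2 of 2 Hox, 2 of 2 Wnt and 1 of 1 germline windows), where 26.4% of all windows were called higher. Among all tested windows at start sites of the same genes, chosen or not, 29 of 48 pluripotency, 69 of 111 lineage, 66 of 97 Hox, 71 of 141 Wnt and 14 of 28 germline windows were called higher. Prdm14, which encodes a zinc finger regulator of naive pluripotency and of germ cells, had a window before its start (chr1:13118000-13118999) with 7.77% and 3.55% in control mESCs, 39.3% and 40.6% in control EBs, 3.82% and 4.92% in shβcat-transduced mESCs, and 62% and 60% in shβcat-transduced EBs (adjusted p = 2.9e-08 between the shβcat groups). Its window on the gene's side (chr1:13116000-13116999) had 35.3% and 31.4% in control EBs and 50.3% and 46.7% with shβcat #1. In both Prdm14 windows each shβcat EB library was above each control EB library. Such orders, here and at the genes below, were not tested. Over the 2003 chosen windows with a level in all 8 transduced libraries, shβcat-transduced EBs exceeded control EBs by a median of 3.30 points. In 361 of these they were higher by over 10 points and in 117 lower by over 10 points. Over all windows with a level the median was lower in shβcat-transduced EBs, at 78.8% against 83.3%.

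Tcl1, whose product is a coactivator of the kinase AKT, had the highest level of these windows in shβcat-transduced EBs (chr12:106461000-106461999). The values were 3% and 3.75% in control mESCs and 55.2% and 45.9% in control EBs, and 12.1% and 3.21% against 83.1% and 70.4% with shβcat #1. Here too both shβcat EB libraries lay above both control EB libraries. At Tbx3 (chr5:120125000-120125999), a T-box factor of the naive state, the order was the opposite, with 48.3% and 42.9% in control EBs and 32.2% and 37.2% with shβcat #1. Dppa2 (chr16:48310000-48310999), which encodes a chromatin-associated protein of early embryonic cells, also stood lower with shβcat #1, at 37.6% and 43.8% against 20.1% and 29.5%.

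Dppa4 (chr16:48284000-48284999), its partner in the same chromosomal neighbourhood, had control EB replicates that were far apart, at 32.9% and 59.1%, and 27.4% and 42% with shβcat #1, so that the groups overlapped. Lefty2 (chr1:182824000-182824999), which encodes an inhibitor of Nodal signaling, had 36.7% and 37.6% in control EBs and 45.2% and 40.9% with shβcat #1. The lineage windows were closer to the limits of the rule. Hand1 (chr11:57645000-57645999), a bHLH factor of heart and trophoblast, had 42.5% and 38.2% in control EBs and 49.5% and 53.6% with shβcat #1. The start-site windows of Pax6, a factor of eye and neural development, and of the blood factors Runx1 and Tal1 had means of 35.5% to 45.7% in control EBs.

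At Hoxb1 (chr11:96228000-96228999), a patterning gene of the hindbrain, control EBs had 43% and 45.8% and shβcat-transduced EBs had 67.8% and 66.6%. Hoxb3 (chr11:96205000-96205999) had 34.6% and 39.6% against 36.5% and 37.6%. Of the Wnt pathway, Dkk3 (chr7:119302000-119302999), of the Dickkopf family, had 39.8% and 40% in control EBs and 42.7% and 40.1% with shβcat #1. Tcf7l2 (chr19:55971000-55971999), a TCF/LEF factor that binds β-catenin, had 48.9% and 56.1% against 50.7% and 54.9%. Hoxb1 thus stood higher with shβcat #1 in both libraries, and the EB groups overlapped at Hoxb3 and Tcf7l2. Smc1b (chr15:84962000-84962999), a meiotic cohesin subunit whose start faces that of Ribc2, had 32% and 33.5% in control EBs and 43.2% and 49.9% with shβcat #1. Its replicates were far apart in YP-mESCs, at 11.9% and 38.4%, and in clone #1, at 36.8% and 5.95%.

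YP-mESCs carried more methylation at the chosen windows than other low windows did. The medians were 14.7% and 15.1%, against 0.465% and 0.511% in the low windows that were not chosen, in libraries that had no part in the choice. The gap remained within classes of CpG content. It was 17.1% against 2.35% in windows with 10 to 19 CpGs, and 14.5% against 0.965% in those with 20 to 39 (means of the 2 replicates' medians). The gap was not particular to YP-mESCs. In windows with 10 to 19 CpGs it was 3.86% against 0.810% in OP-mESCs and 11.2% against 2.34% in shβcat-transduced mESCs. In the clones it was 8.16% against 1.21% (#1) and 7.52% against 1.62% (#2). The level in YP-mESCs was also higher where control EBs were higher. The median in YP-mESCs was 12.3%, 12.7%, 15.9% and 19.7% in the 4 groups of windows by rise with shCtrl, from the smallest rise to the largest. Across 1750 windows the levels in YP-mESCs and control EBs had a Pearson's r of 0.513, again a description across windows that share CpG content.

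In OP-mESCs the chosen windows lay lower. The medians were 3.57% and 3.33%, against 14.7% and 15.1% in YP-mESCs. Of 1070 windows that could be tested, 742 fell and 2 rose, where 17.5% of all 36626 windows tested were called lower and 0.437% higher. Both OP-mESC libraries lay below both YP-mESC libraries in 970 chosen windows, against 47.9% of all windows. The median difference was -9.96 points in the chosen windows (quartiles -15.0 and -6.18), -0.0547 in the low windows that were not chosen and -1.88 in all windows. A window that starts near 0 has little room to fall, and the low windows that were not chosen started there. With only 3 libraries in the fit the calls of this test depended on the library left out, and none of the chosen windows was called without YP-mESC replicate 1 (763 at an unadjusted p under 0.05), 61 without YP-mESC replicate 2, 341 without OP-mESC replicate 1 and 348 without OP-mESC replicate 2. By edgeR's quasi-likelihood test 833 windows were called with all libraries and 655 to 1041 with each library left out in turn.

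In the S33Y clones the windows lay between the levels of YP-mESCs and OP-mESCs. The medians were 7.64% and 7.61% in 'O-S33Y #1' and 7.58% and 6.91% in 'O-S33Y #2'. Against the same YP-mESC libraries, 446 of 1644 windows fell and 4 rose in clone #1, where 2.42% of all windows were called lower and 1.54% higher. In clone #2, 645 of 1640 fell and 8 rose, where 6.28% of all windows were called lower and 1.35% higher. Both libraries of clone #1 were below both YP-mESC libraries in 1217 chosen windows, against 18.9% of all windows, and those of clone #2 in 1228, against 25.9%. The median differences were -7.03 and -7.05 points in the chosen windows and 0.201 and -0.022 points in all windows. The number of calls moved with the test. For clone #1 edgeR called 676 windows, and the quasi-binomial test with a library left out called 1 (YP-mESC replicate 1), 4 (YP-mESC replicate 2), 2 (clone replicate 1) and 1 (clone replicate 2), where edgeR called 424 to 571. For clone #2 these counts were 260 without YP-mESC replicate 1, 393 without YP-mESC replicate 2, 0 without clone replicate 1 (836 at an unadjusted p under 0.05) and 15 without clone replicate 2, where edgeR called 439 to 664.

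**Figure D5:**
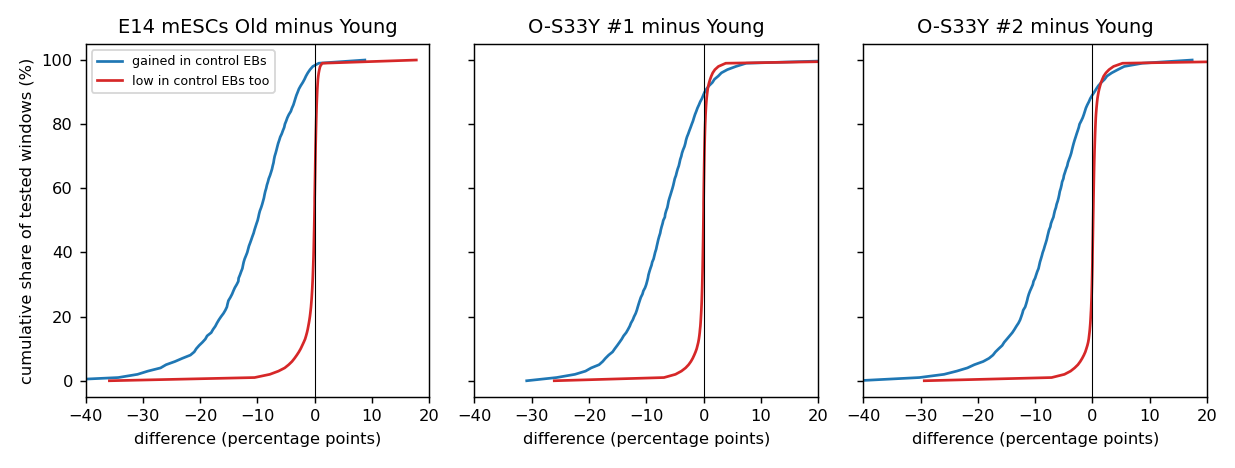
Cumulative share (%) of tested windows by their difference in methylation from YP-mESCs (percentage points, means over common CpGs), for OP-mESCs and both S33Y clones, in blue for the chosen windows and in red for the low windows that were not chosen. The blue curves cross 50% at -9.96, -7.03 and -7.05 points, and the red curves close to 0. The axis shows -40 to 20 points, and a few windows lie outside it.

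The comparisons with YP-mESCs share their control libraries, so the falls in OP-mESCs and in the clones are given side by side only. Several windows fell from levels that were high for YP-mESCs. An intergenic window with 5 reference CpGs (chr8:24678000-24678999) had 46.2% and 53.3% in YP-mESCs, 4.04% and 3.28% in OP-mESCs, 20.7% and 19.4% in clone #1, and 7.94% and 9.49% in clone #2. It was called lower in all 3 comparisons, with differences of -46.1, -29.7 and -41.0 points (adjusted p = 0.00054, 0.011 and 0.00054). The Ephb2 window fell from 48.3% in both YP-mESC libraries to 3.55% and 4.13% in OP-mESCs (adjusted p = 0.00028), and stood at 22.1% and 28.4% in clone #1 and at 38.2% and 27.9% in clone #2.

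A window between genes (chr3:9334000-9334999) differed between the clones in its calls. It had 56% and 56.3% in YP-mESCs, 11.3% and 14.7% in OP-mESCs (adjusted p = 0.00015), 51.1% and 52.9% in clone #1 (adjusted p = 0.16) and 38.8% and 39.4% in clone #2 (adjusted p = 0.0018). The Erf window had 40.6% and 47.2% in YP-mESCs, 2.81% and 6.37% in OP-mESCs, 13.7% and 16.6% in clone #1, and 9.28% and 6.85% in clone #2. The window at Zfp809 (chr9:22031000-22031999), a zinc finger gene whose product silences retroviral DNA, had 41.9% and 47% in YP-mESCs and 5.86% and 8.33% in OP-mESCs, and fell by 27.3 points in clone #1 and by 37.1 points in clone #2. At Nfe2l1 (chr11:96688000-96688999), a bZIP factor gene, the clones stood at 17.3% and 15.1%, and at 10.5% and 9.21%, against 49.1% and 43.4% in YP-mESCs, while the OP-mESC replicates were far apart at 23.4% and 4.42%.

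A few chosen windows went the other way. The Ildr1 window, in the gene of an immunoglobulin-like domain receptor, had 23.3% and 18.1% in YP-mESCs, 47.2% and 44.7% in clone #1, and 44.2% and 34.2% in clone #2 (adjusted p = 0.0048 and 0.0052), while OP-mESCs had 9.68% and 1.51%. An intron of Slc38a4 (chr15:96880000-96880999), an imprinted amino acid transporter gene, had 17.2% and 17.7% in YP-mESCs and 32% and 35.7% in clone #1 (adjusted p = 0.023), and 20.9% and 22.4% in clone #2 (adjusted p = 0.49). The 2 windows called higher in OP-mESCs lay in an intron of Sh3pxd2a (chr19:47487000-47487999), with 20.4% and 18.3% in YP-mESCs and 32.3% and 29.6% in OP-mESCs (adjusted p = 0.036), and at the start of Tnk1 (chr11:69672000-69672999), with 2.15% and 2.66% against 6.86% and 6.24% (adjusted p = 0.04).

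Against YP-mESCs, 3 of 3 pluripotency, 1 of 3 lineage, 1 of 2 Hox and 0 of 1 germline windows at listed start sites fell in OP-mESCs, where 17.5% of all windows were called lower. Among all tested start-site windows of the same genes, chosen or not, 5 of 35 pluripotency, 7 of 76 lineage, 7 of 67 Hox and 9 of 14 germline windows were called lower. The Prdm14 window before the start had 14.9% and 9.36% in YP-mESCs and 2.8% and 3.1% in OP-mESCs (adjusted p = 0.0067). Tbx3 had 16.6% and 27.7% against 2.88% and 2.86% (adjusted p = 0.0029). In clone #1, 0 of 6 pluripotency, 0 of 3 lineage, 0 of 2 Hox, 1 of 2 Wnt and 0 of 1 germline windows fell, where 2.42% of all windows were called lower. In clone #2, 2 of 7 pluripotency, 0 of 3 lineage, 0 of 2 Hox, 1 of 2 Wnt and 0 of 1 germline windows fell, where 6.28% of all windows were called lower. The Wnt window was that of Tcf7l2, with 45.5% and 38.4% in YP-mESCs, the highest of the 17 there, 18.2% and 17.7% in clone #1 (adjusted p = 0.022), and 25.6% and 22.3% in clone #2 (adjusted p = 0.036).

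Among the highest levels in YP-mESCs, beside that at chr3:9334000-9334999, were those in an intergenic window (chr11:79121000-79121999), with 51.1% and 62.5%, and in a window of Nxn (chr11:76076000-76076999), with 55.3% and 52.9%. By the rule they were low in shCtrl-transduced mESCs, at means of 18.2% and 17.2%, a comparison across transduction that was not tested. Of the 5 windows highest in OP-mESCs, 2 had replicates far apart, with 47.2% and 16.2% at the start of R3hdml (chr2:163318000-163318999) and 11.1% and 53.3% at Gm17546 (chr15:95660000-95660999). Gtf2a2 (chr9:69859000-69859999), a basal transcription factor subunit, had 43.3% and 26.8% in YP-mESCs and 32.3% and 37.8% in OP-mESCs, so the groups overlapped.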

How the data were processed

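RRBS libraries were made with the NuGEN Ovation RRBS Methyl-Seq system. The authors processed the reads with CASAVA 1.8.2, Trim Galore 0.2.8 and Bismark 0.7.9, per the labels, against mm9. The deposited files give, for each cytosine with at least 10 reads, the coverage (counts of reads) and the percent of them methylated. How duplicate reads were treated is not given in the sources used here.

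Methylated reads were recovered from these columns and strands were summed per CpG. A window is a block of 1000 bases, and its level is the mean over at least 3 CpGs. Conditions were compared by a quasi-binomial logistic model per window on the reads at CpGs common to the 4 libraries, with dispersions squeezed by limma 3.58.1 (R 4.3.3) and held at 1 or more, an F test and Benjamini-Hochberg adjustment over all windows. A window was called at an adjusted p under 0.05. Scripts were tested on reads simulated for the shβcat comparison, with changes of 25 points. No simulation covered the comparisons with YP-mESCs. An exact permutation test of 2 against 2 libraries cannot go below p = 0.33. Reads without molecular identifiers are not independent molecules.

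Genes and start sites, with the start of every annotated transcript counted, came from GENCODE on NCBIM37 (mm9). Sequences came from the same build, and the imprinting control regions from a list of intervals that accompanies the study. Alternatives were edgeR 4.0.16, a replicate block, 20 reads per CpG, a cap on coverage, a minimum difference, other limits of the rule and leaving out each library. Other tools were Python 3.11.15 with numpy 2.4.6, pandas 2.3.3 and matplotlib 3.10.9.

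The windows and gene lists were chosen with earlier results of these data known. Windows were named by rule, as the 12 largest rises, those nearest the limits, those at listed start sites, up to 5 called in each direction with the largest difference, the 5 lowest and highest in EB shβcat #1, the 3 longest runs, and the 5 highest in YP-mESCs and in OP-mESCs. Some of these are not described, and some items are not reported here.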

Additional observations from a re-analysis of the deposited data

How the results depend on the processing

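The rise in shβcat-transduced EBs kept its direction under every setting run, with 1386 to 2158 windows called. Calls against YP-mESCs were less stable, though no direction reversed. With the replicate number as a block, the quasi-binomial test called 0 windows in OP-mESCs, 0 in clone #1 and 0 in clone #2 (802, 927 and 980 at an unadjusted p under 0.05), where edgeR with the block called 797, 678 and 761. Same-numbered libraries did not deviate together across windows (r from -0.0132 to 0.00259). With 2 replicates per group this cannot show whether the numbers pair samples. With 20 reads per CpG, 425 windows were called in OP-mESCs and 397 in clone #2. Above 25 points, 61, 19 and 38 were called. Without the block edgeR called 833, 676 and 768. Leaving out a library gave 0 to 348 calls in OP-mESCs (655 to 1041 by edgeR), 1 to 4 in clone #1 (424 to 571) and 0 to 393 in clone #2 (439 to 664). A lone library was then assumed to vary like the other group. The cause was not tested. The edgeR fits with the block or without a library, and a fit on all CpGs of each library, were added after seeing the data.

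The rule chose 1192 windows with 5 CpGs, 1363 with 20 reads, 544 with limits of 10% and 40%, and 3191 to 3241 from 1 replicate. The median in shβcat-transduced EBs, 54.9%, became 51.4%, 53.5% and 60.4% under the first 3 settings and 52.5% to 52.9% from 1 replicate. Depth of 10 reads limits single CpGs, and few windows had levels in OP-mESC replicate 2.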
